A study of Mus musculus with 6 samples.

Results

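Gasdermins and the caspases and kinases of lytic cell death were examined in the colon of weanling mice whose dams had received dextran sulfate sodium (DSS) during pregnancy. The genes were chosen by name: Gsdmc2, Gsdmc3, Gsdmc4, Gsdmd, Casp1, Casp4, Casp8, Ripk1, Ripk3 and Mlkl. All 10 were found by symbol among the 20594 genes of the expression table, and all 10 passed the filter on low values that left 13594 genes for testing. DSS is a sulfated polysaccharide that injures the colonic epithelium and is widely used to cause colitis in mice. The control group consisted of 3 colon libraries from C57BL/6J offspring aged 3 weeks whose dams received 0% DSS, and the maternal DSS group of 3 such libraries whose dams received 1.5% DSS. The sample labels place the exposure of the dams between embryonic day 13 and 19, whereas the series text gives 5 days, so the length of exposure is uncertain. All 6 libraries share strain, tissue and age, and the offspring themselves are not described as having received DSS. The labels speak of several offspring per title and name no litter, dam or sex, so a library may be 1 animal or a pool, and p-values measure the spread between these libraries only.

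Gasdermins are proteins whose amino-terminal part, once freed by a protease, assembles into pores in the plasma membrane and brings about a lytic death called pyroptosis. Gsdmd is the substrate of the inflammatory caspases encoded by Casp1 and by Casp4, the mouse gene for caspase-11, which senses bacterial lipopolysaccharide in the cytosol. The Gsdmc paralogs are expressed in mouse gut epithelium and are induced there by the type 2 cytokines interleukin-4 and interleukin-13 through STAT6 during worm infection. Caspase-8 starts death receptor apoptosis and holds back necroptosis, the lytic death carried out by the kinases RIPK1 and RIPK3 and the membrane-disrupting pseudokinase MLKL. The activity of all of these proteins is set by cleavage, phosphorylation and assembly, which mRNA levels do not measure.

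The 3 Gsdmc genes lie side by side on the minus strand of chromosome 15 (GRCm38.p6, the assembly that mm10 names). Gsdmc2 spans chr15:63824328-63845193, Gsdmc3 chr15:63857605-63878579 and Gsdmc4 chr15:63891140-63912319, and Gsdmd lies apart on the plus strand at chr15:75862144-75867408. Their coding sequences are shown because the similarity decides how far the deposited values can separate the paralogs. The first 96 coding bases differ at 2 positions, which are in capitals (GENCODE M21 transcripts, 5′ to 3′):
Gsdmc2: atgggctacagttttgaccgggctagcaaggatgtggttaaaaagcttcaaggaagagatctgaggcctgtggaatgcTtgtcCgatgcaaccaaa
Gsdmc3: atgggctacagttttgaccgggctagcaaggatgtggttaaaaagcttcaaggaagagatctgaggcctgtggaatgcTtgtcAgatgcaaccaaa
Gsdmc4: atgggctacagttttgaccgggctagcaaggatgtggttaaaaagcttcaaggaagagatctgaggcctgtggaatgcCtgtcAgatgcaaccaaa

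A stretch of 96 bases chosen for its many differences begins at coding base 767 of Gsdmc2 and Gsdmc3 and at coding base 773 of Gsdmc4. It holds 22 positions at which the 3 sequences are not all alike, again in capitals, and 13 of them separate Gsdmc2 from Gsdmc3:
Gsdmc2: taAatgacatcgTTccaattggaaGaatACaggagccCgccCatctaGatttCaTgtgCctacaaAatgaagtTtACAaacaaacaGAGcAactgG
Gsdmc3: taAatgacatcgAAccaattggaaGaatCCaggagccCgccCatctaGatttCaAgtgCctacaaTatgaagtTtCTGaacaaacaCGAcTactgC
Gsdmc4: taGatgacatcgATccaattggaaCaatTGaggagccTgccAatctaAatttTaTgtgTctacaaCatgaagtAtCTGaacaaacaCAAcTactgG

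Over the whole coding sequence Gsdmc2 and Gsdmc3 are 97.1% identical, and each is 93.0% identical to Gsdmc4. By contrast Gsdmc2 and Gsdmd align at 50.3%. Of all windows of 100 bases in a transcript, 28.6% in Gsdmc2, 30.5% in Gsdmc3 and 20.2% in Gsdmc4 also occur in another Gsdmc transcript, while none of those in Gsdmd, Casp1 or Casp4 occurs in any other of the compared transcripts. Reads from the shared windows cannot be assigned by sequence alone, so the values of the single paralogs are uncertain and their sum is given beside them.

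The gasdermin C genes were among the most abundant transcripts of the weanling colon, and the necroptosis genes were the lowest of the set. Levels are FPKM, in which fragments are divided by transcript length and by library size, so genes can be compared. Averaged over the 6 libraries, Gsdmc4 had 321 FPKM and stood in the top 0.952% of the 20594 genes, Gsdmc2 had 208 FPKM (top 1.37%) and Gsdmc3 81.4 FPKM (top 3.46%). Casp1 followed with 77.5 FPKM, Gsdmd with 45.0, Casp8 with 24.6 and Casp4 with 15.1. Ripk1 had 11 FPKM, Ripk3 9.59 and Mlkl 7.61, the last standing in the top 32.6% of genes.

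Most neighbours in this order were separated in every library. The ranges over the 6 libraries overlapped for 2 neighbouring pairs, Gsdmc3 with Casp1 and Ripk3 with Mlkl. Gsdmc3 exceeded Casp1 in 5 of 6 libraries, whereas Ripk3 exceeded Mlkl in 6 of 6 although their ranges overlapped. Ripk1 and Ripk3 only just separated, with 10.3 FPKM as the lowest Ripk1 and the highest Ripk3 value to 3 digits. Together Gsdmc2, Gsdmc3 and Gsdmc4 made up between 73.8% and 77.0% of the summed FPKM of the 10 genes in each library.

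No gasdermin or cell death gene differed between maternal DSS and control offspring past the threshold. In limma with Benjamini-Hochberg adjustment over 13594 genes, 0 genes of the whole table (0.0%) and 0 of the 10 had an adjusted p under 0.05. At an unadjusted p under 0.05 there were 1064 genes (7.83% of those tested) and again 0 of the 10. The log2 difference, maternal DSS minus control, was above 0 for 8 of the 10 genes against 40.3% of all tested genes, and its median was 0.11 against -0.037 over all tested genes. These signs depended on the scaling: 6 of the 10 were above 0 after each library was scaled to the same FPKM sum, and 9 after median-ratio scaling. The 10 genes were named with earlier results of these data known, and no value is given for how often other sets of genes would show such counts.

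**Figure D1:**
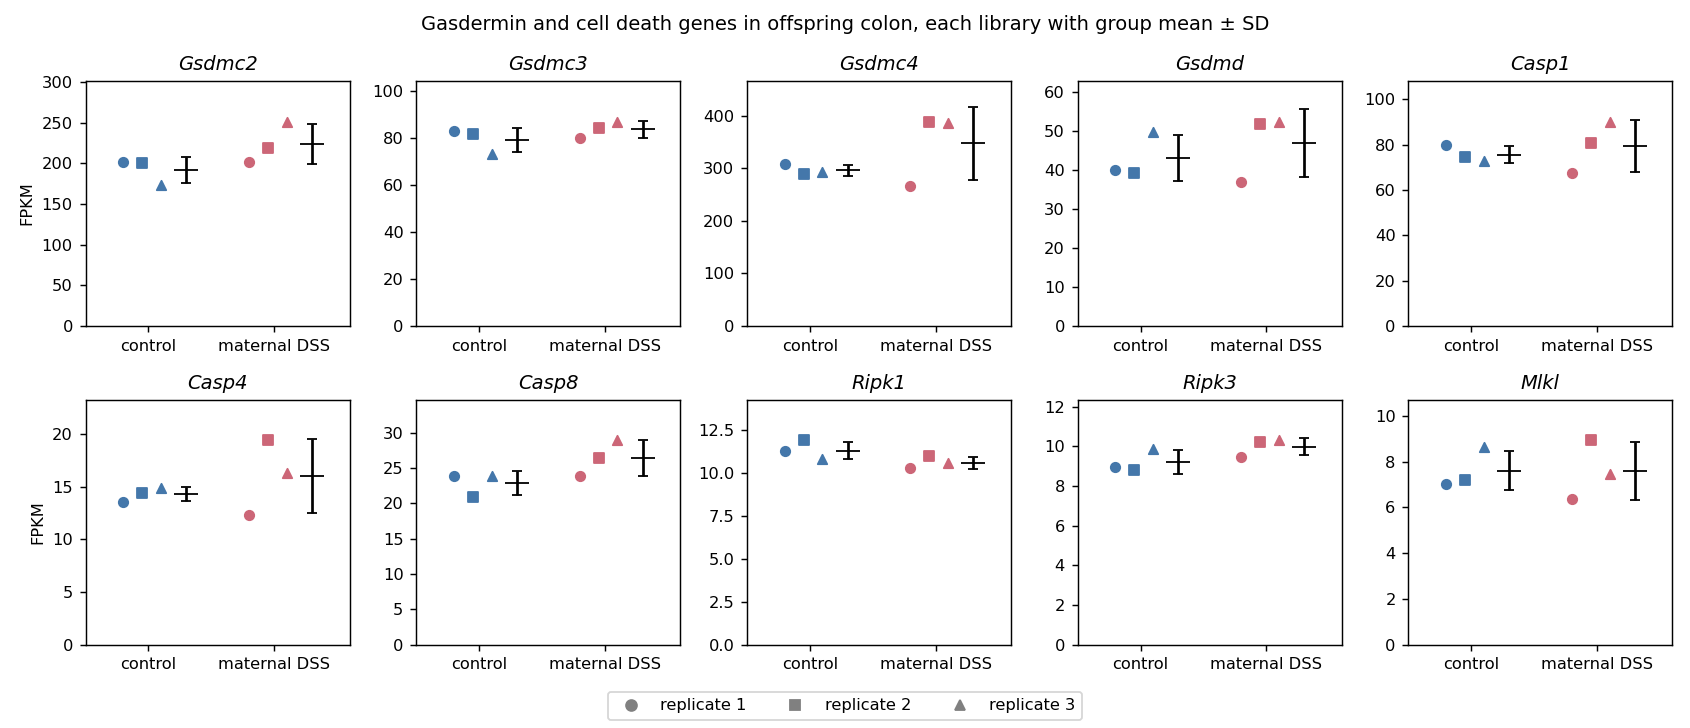
FPKM of each gene (vertical axis from 0, a separate scale per panel) in 3 control and 3 maternal DSS libraries, with replicate shown by marker shape and the group mean ± SD as a bar beside the points. In every panel the maternal DSS 2 and 3 points lie above maternal DSS 1, and only for Gsdmc2 do the groups not overlap.

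Gsdmc2, a gasdermin C pore-forming gene, had 202, 200 and 173 FPKM in controls 1 to 3 and 202, 219 and 251 in maternal DSS 1, 2 and 3. It was the 1 gene of the 10 whose groups did not overlap, but the lowest maternal DSS value lay just 0.269 FPKM above the highest control. Over all tested genes the groups did not overlap in 14.1%, and were higher in the maternal DSS group without overlap in 4.92%. The mean was 224 ± 24.8 FPKM in maternal DSS and 192 ± 15.9 in control libraries (SD, n = 3 each). In limma the log2(FPKM + 1) difference was 0.22 (SE 0.11, 95% interval -0.04 to 0.48, adjusted p = 0.619). After scaling to equal FPKM sums the groups overlapped.

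Gsdmc4, the most abundant of the set, had 308, 288 and 292 FPKM in the controls and 267, 388 and 386 in maternal DSS 1, 2 and 3. Maternal DSS 1 was thus the lowest of the 6 libraries and the other 2 of its group the highest. The means were 347 ± 69.7 against 296 ± 10.8 FPKM (SD, n = 3 each), with a log2 difference of 0.21 (SE 0.16, 95% interval -0.16 to 0.57, adjusted p = 0.666 in limma). The coefficient of variation was 20.1% among maternal DSS and 3.65% among control libraries.

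Gsdmc3 had 82.8, 81.5 and 73.1 FPKM in the controls and 79.8, 84.1 and 86.8 in the maternal DSS libraries. Maternal DSS 1 lay within the control range and the other 2 just above it. Its log2 difference of 0.08 (SE 0.08, adjusted p = 0.726 in limma) was the smallest of the 3 paralogs and became -0.032 after scaling to equal FPKM sums.

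Summed over Gsdmc2, Gsdmc3 and Gsdmc4, the level was 593, 570 and 538 FPKM in controls 1 to 3 and 548, 691 and 724 in maternal DSS 1, 2 and 3. The group means of 654 ± 93.3 and 567 ± 27.4 FPKM (SD, n = 3 each) differed by 87.6 FPKM, a ratio of 1.15 (two-sided exact permutation p = 0.3, the smallest possible being 0.1). Without maternal DSS 1 the difference was 141 FPKM (exact permutation p = 0.2), and without maternal DSS 3 it was 53.0 (exact permutation p = 0.6). Once a library is left out, 0.2 is the smallest p that this test can give. The make-up of the sum moved little: Gsdmc4 contributed between 48.6% in maternal DSS 1 and 56.2% in maternal DSS 2, Gsdmc2 between 31.7% and 36.8%, and Gsdmc3 between 12.0% and 14.6%. Gsdmc3 had its 2 lowest shares in maternal DSS 2 and 3, at 12.2% and 12.0%.

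**Figure D2:**
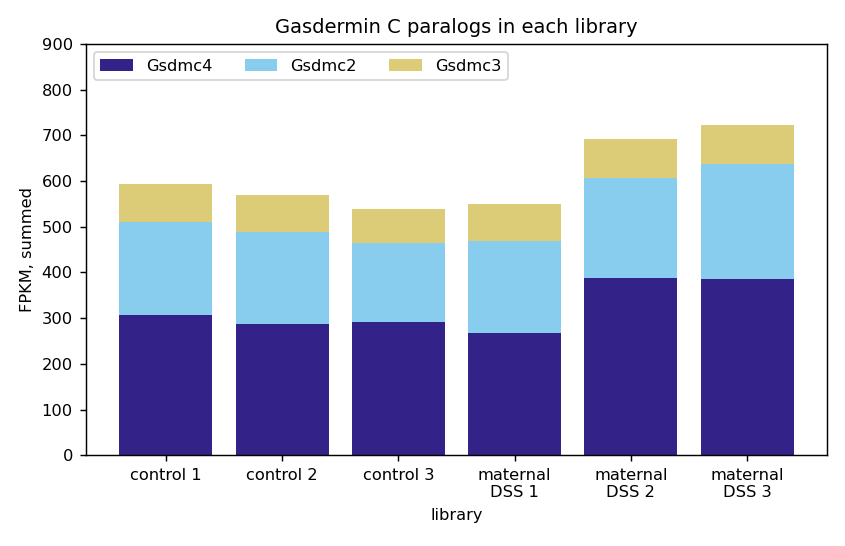
Stacked FPKM of Gsdmc4, Gsdmc2 and Gsdmc3 (vertical axis, from 0) in each of the 6 libraries (horizontal axis). The bars of maternal DSS 2 and 3 reach 691 and 724 FPKM, and the bar of maternal DSS 1, at 548, lies among the controls at 538 to 593.

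Gsdmd, the pore-former of the inflammasome pathway, had 40.0, 39.1 and 49.7 FPKM in the controls and 36.9, 51.7 and 52.3 in maternal DSS 1, 2 and 3. Control 3 stood with maternal DSS 2 and 3, and maternal DSS 1 was lowest. The log2 difference was 0.12 (SE 0.16, 95% interval -0.25 to 0.48, adjusted p = 0.792 in limma). The summed gasdermin C level was between 10.8 and 14.9 times that of Gsdmd over the libraries, and the lowest ratio was that of control 3.

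Casp1 and Casp4, the inflammatory caspases that cleave gasdermin D, are neighbours on the plus strand of chromosome 9, at chr9:5298517-5307281 and chr9:5308849-5336791. Casp1 had 79.8, 74.3 and 72.7 FPKM in the controls and 67.4, 80.7 and 90.0 in the maternal DSS libraries. Casp4 had 13.5, 14.4 and 14.9 FPKM in the controls and 12.3, 19.4 and 16.3 in the maternal DSS libraries. In both genes maternal DSS 1 was the lowest library and the other 2 of its group the highest, so the groups overlapped. The log2 differences were 0.06 for Casp1 (SE 0.11, adjusted p = 0.855 in limma) and 0.13 for Casp4 (SE 0.15, adjusted p = 0.752). The sign for Casp1 turned after scaling to equal FPKM sums (-0.05) and without maternal DSS 3 (-0.034), and that for Casp4 without maternal DSS 2 (-0.0095).

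Casp8, which encodes the apoptotic initiator that restrains necroptosis (chr1:58795233-58847503), had 23.8, 20.9 and 23.9 FPKM in the controls and 23.8, 26.4 and 28.9 in maternal DSS 1, 2 and 3. Maternal DSS 1 lay within the control range and the other 2 above it. The means of 26.4 ± 2.56 and 22.9 ± 1.72 FPKM (SD, n = 3 each) gave a log2 difference of 0.20 (SE 0.10, 95% interval -0.03 to 0.42, adjusted p = 0.619 in limma). Its unadjusted p of 0.0766 in limma was the smallest of the 10.

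The necroptosis genes had the lowest levels of the set, and none passed the threshold. Ripk1, the death domain kinase at chr13:34002225-34035170, had 11.3, 11.9 and 10.8 FPKM in the controls and 10.3, 11 and 10.6 in the maternal DSS libraries. Ripk3, the kinase that phosphorylates MLKL (chr14:55784995-55788857), had 8.94, 8.80 and 9.87 against 9.48, 10.2 and 10.3 FPKM. Mlkl, the executioner of necroptosis (chr8:111311255-111338479), had 7.05, 7.20 and 8.63 against 6.39, 8.94 and 7.47 FPKM. The groups overlapped in all 3 genes, with Ripk1 lowest in maternal DSS 1 and highest in control 2.

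The 95% intervals of these 3 genes on the log2(FPKM + 1) scale cover the spread between libraries in the unscaled values, and not the choice of scaling. For Ripk1 the log2 difference of -0.09 had an interval from -0.26 to 0.08, and for Ripk3 that of 0.11 ran from -0.08 to 0.29. Mlkl, at -0.01, had an interval from -0.31 to 0.29 (adjusted p = 0.688, 0.666 and 0.98 in limma for Ripk1, Ripk3 and Mlkl). The sign of Mlkl turned after median-ratio scaling, with array weights, and without control 3 or maternal DSS 1. After scaling to equal FPKM sums the log2 differences were -0.2 for Ripk1, 0.0058 for Ripk3 and -0.12 for Mlkl.

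**Figure D3:**
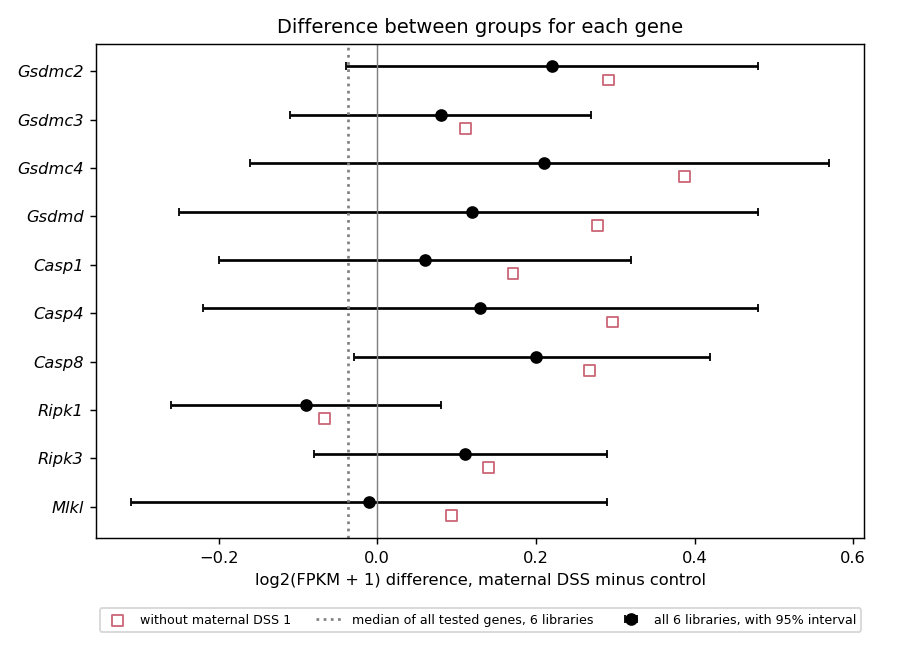
Log2(FPKM + 1) difference, maternal DSS minus control (horizontal axis), for each gene with its 95% interval from limma on 6 libraries (filled circles) and the estimate without maternal DSS 1 (open squares); the dotted line is the median of all tested genes, -0.037. All 10 intervals include 0, and the open squares lie to the right of the circles for every gene, by most for Gsdmc4. That direction follows from maternal DSS 1 lying below maternal DSS 2 and 3 in all 10 genes.

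The clearest ordering in these genes ran within the maternal DSS group. Maternal DSS 2 and 3 both exceeded maternal DSS 1 in 10 of 10 genes, an order that 30.6% of all tested genes had. They were the 2 highest of the 6 libraries in 8 of the 10 genes, against 13.2% of all tested genes, and maternal DSS 1 was the lowest of the 6 in 6 of 10, against 14.3%. This ordering was noticed in the values and is a description of these libraries, and the genes are not independent of one another. The mean of maternal DSS 2 and 3 was 1.45 times maternal DSS 1 for both Gsdmc4 and Casp4, 1.41 times for Gsdmd, 1.28 times for Mlkl and 1.27 times for Casp1. It was between 1.05 and 1.16 times for Gsdmc2, Gsdmc3, Casp8, Ripk1 and Ripk3. The coefficient of variation was larger among maternal DSS than among control libraries in 7 of 10 genes, about as often as in all tested genes (69.3%).

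**Figure D4:**
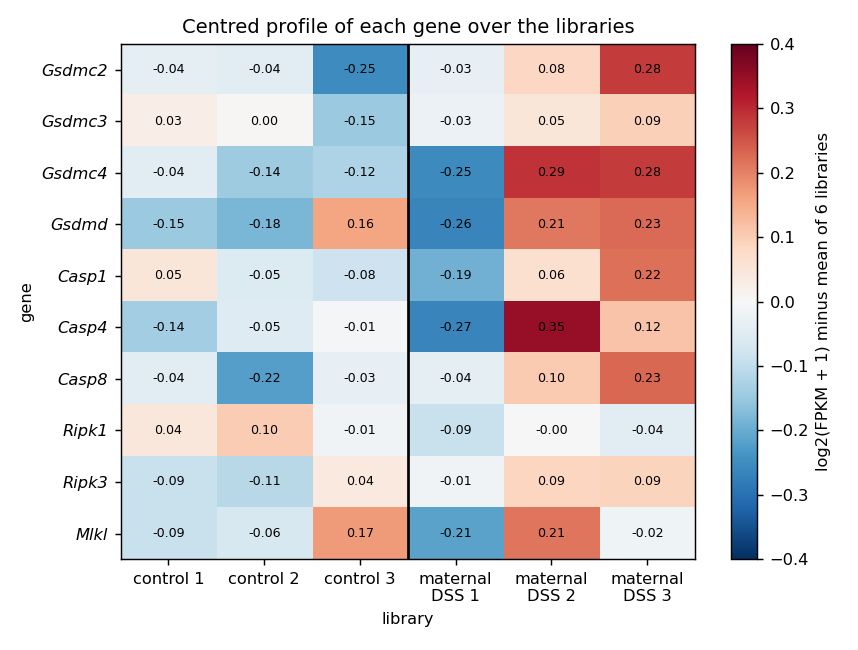
Log2(FPKM + 1) of each gene (rows) in each library (columns) minus the gene's mean over the 6 libraries, printed in each cell and coloured from blue (below) to red (above). The maternal DSS 1 column is negative in every row, and the maternal DSS 2 and 3 columns hold the highest values for all genes except Ripk1, which is highest in control 2, and Mlkl, which is high in control 3 and maternal DSS 2.

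Leaving out maternal DSS 1 changed the count of genes at the unadjusted threshold from 0 to 5 of 10, all higher: Gsdmc2, Gsdmc4, Gsdmd, Casp4 and Casp8. Because maternal DSS 1 lay below maternal DSS 2 and 3 in all 10 genes, leaving it out had to raise every log2 difference. In that fit 7.83% of all tested genes were higher at an unadjusted p under 0.05 and 25.0% passed in either direction. The log2 differences were then 0.39 for Gsdmc4, 0.30 for Casp4, 0.29 for Gsdmc2, 0.28 for Gsdmd and 0.27 for Casp8. Their adjusted p-values in limma ran from 0.144 for Gsdmc4 to 0.189 for Gsdmd, and 10 genes of the whole table (0.0747%), none of them among these, passed the adjusted threshold. Leaving out any other library gave 0 of 10. With limma array weights, which give each library its own weight, 5 of the 10 passed the adjusted threshold, all higher (Gsdmc4, Gsdmd, Casp4, Casp8 and Ripk3), in a fit that called 36.3% of all tested genes, 10.9% as higher. Its weights were 5.47 for maternal DSS 2 against 0.249 for maternal DSS 1 and 0.454 for maternal DSS 3. The maternal DSS side of that fit therefore rested mostly on 1 library.

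Markers of other cell types and of another gut region were also unequal between the maternal DSS libraries. In bulk tissue, more cells of a type and more RNA per cell cannot be told apart. Of 13 small intestine and Paneth cell markers 10 were in the table. Their summed level was 20.9 to 43.6 FPKM in the controls and 22.7, 172 and 193 in maternal DSS 1, 2 and 3. The largest parts in maternal DSS 2 and 3 were Fabp6 (2.08, 72.7 and 52.4 FPKM in maternal DSS 1, 2 and 3) and Apoa1 (0.839, 30.6 and 47.5). All 8 tested genes of the list had log2 differences above 0, 2 of them at an unadjusted p under 0.05 in limma. The lactase gene Lct, which was not tested, stayed at or below 0.073 FPKM in all libraries. The 8 B and plasma cell markers summed to 155 to 204 FPKM in the controls and 203, 812 and 1110 in maternal DSS 1, 2 and 3. The 11 macrophage markers summed to 158, 185 and 269 FPKM in controls 1 to 3 and to 159, 266 and 344 in the maternal DSS libraries, so control 3 was high here as for Gsdmd and Mlkl.

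The 9 T and NK cell markers summed to at most 10.8 FPKM in any library. Of 7 neutrophil markers 4 were in the table, and they summed to 39.9, 30.4 and 76.4 FPKM in the controls and 24.6, 72.9 and 72.9 in maternal DSS 1, 2 and 3. Nearly all of that sum was Ly6g, a neutrophil surface antigen gene, at 39.3, 29.0 and 74.6 against 23.0, 69.8 and 71.9 FPKM, so the groups overlapped. S100a8 and S100a9, the abundant neutrophil calprotectin genes, were at most 1.26 and 1.69 FPKM, and Csf3r, the receptor gene for granulocyte colony-stimulating factor, at most 0.242 FPKM. The 6 epithelial markers summed to 4230 to 4470 FPKM in the controls and 4290, 4940 and 4880 in maternal DSS 1, 2 and 3, and the 6 smooth muscle markers to 2870 to 3030 and 3080, 2390 and 2830. The 8 colonocyte markers, led by the carbonic anhydrase gene Car1, summed to 7890 to 8840 FPKM in the controls and 10400, 9200 and 11200 in the maternal DSS libraries. Car1 alone, a marker of large bowel epithelium, had 4530 to 7280 FPKM, with 7010 in maternal DSS 1, so it dominated the sum. Other genes of the list differed in order. Car4 (181, 326 and 325 FPKM in maternal DSS 1, 2 and 3) and Aqp8 (179, 271 and 303) were lowest of the 6 libraries in maternal DSS 1. Slc26a3 had 205, 290 and 304 FPKM in these libraries. For 3 of the 8 genes, Krt20, Guca2a and Slc37a2, the groups did not overlap, and maternal DSS 1 lay above every control. Of all tested genes, 4.92% were higher in the maternal DSS group without overlap. The part of these cell types in the levels of the gasdermin and cell death genes was not tested.

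Further gasdermin genes had far lower levels. Gsdmc, the remaining coding paralog of the cluster, had 6.14, 5.98 and 6.30 FPKM in the controls and 6.17, 7.82 and 8.02 in maternal DSS 1, 2 and 3 (log2 difference 0.22, SE 0.11, unadjusted p = 0.0805 in limma). Gsdme, a further pore-forming gasdermin gene, had 5.54, 5.30 and 5.91 against 5.84, 7.57 and 7.98 FPKM (log2 difference 0.30, SE 0.12, unadjusted p = 0.0398, adjusted p = 0.619 in limma). In both genes maternal DSS 1 lay within the control range and the other 2 above it. Ninj1, which ruptures the membrane after gasdermin pores form, had a log2 difference of -0.00 (SE 0.15), and Gsdma had between 0.486 and 1.38 FPKM and was not tested.

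Upstream, the inflammasome genes showed no common direction. Of 19 sensors and adaptors 14 were tested, of which 5 had log2 differences above 0 and 9 below, with a median of -0.032 and none at an unadjusted p under 0.05. Naip6, of the family that detects bacterial flagellin and secretion systems, had the largest, at -0.35 (SE 0.21), with 16.6, 16.3 and 11.6 FPKM in the controls and 15.2, 10.8 and 8.60 in maternal DSS libraries. The adaptor gene Pycard, which links sensors to caspase-1, had 43.7, 42.5 and 46.3 FPKM in the controls and 42.0, 55.7 and 56.8 in maternal DSS 1, 2 and 3 (log2 difference 0.20, SE 0.12). Its order of libraries matched that of Gsdmd, with maternal DSS 1 lowest and the other 2 of its group highest. Nlrp3 was at most 0.199 FPKM, while Nlrp6, an epithelial sensor, had 30.0 to 35.1 FPKM.

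Among the cytokines that caspase-1 activates, Il18 was expressed and Il1b was near the lower end of the scale. Il18, which gut epithelium produces, had 28.0, 25.5 and 38.8 FPKM in the controls and 22.9, 46.7 and 45.0 in maternal DSS 1, 2 and 3 (log2 difference 0.26, SE 0.28), with control 3 below maternal DSS 2 and 3 and above the other libraries. Il1b had at most 0.511 FPKM in any library and was not tested. Of the 8 genes of this list 5 were tested, 2 above and 3 below 0, with none at an unadjusted p under 0.05. The alarmin gene Il33 had a log2 difference of -0.20 (SE 0.21).

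A list of interferon-induced GTPases and interferon factors was read for the steps upstream of caspase-11. Of its 10 genes 9 were tested, 3 above and 6 below 0, with a median of -0.08. Irgb10 was not found by symbol, so Irgm1 was the only immunity-related GTPase tested. Gbp7 had 2.66, 2.67 and 3.13 FPKM in the controls and 2.29, 2.16 and 1.98 in maternal DSS libraries (log2 difference -0.28, SE 0.10, unadjusted p = 0.0213 in limma). Irgm1 had 19.3, 16.6 and 16.5 against 13.2, 15.5 and 14.9 FPKM (-0.25, SE 0.10, unadjusted p = 0.0345 in limma). Irf2, a factor required for Gsdmd transcription in mouse macrophages, had 23.7, 22.6 and 20.1 against 25.7, 26.1 and 24.6 FPKM (0.20, SE 0.08, unadjusted p = 0.0454 in limma). In these 3 genes the groups did not overlap, and none passed adjustment over all genes. Of the 9 tested genes, 1 was higher and 3 were lower without overlap, the further gene being Irf1 (unadjusted p = 0.189 in limma). Over all tested genes the groups did not overlap in 14.1%.

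In the death receptor complex and the machinery that holds RIPK1 in check, 27 of 29 genes were tested, 12 above and 15 below 0, with a median of -0.012. Tnfaip3, which encodes the ubiquitin-editing enzyme A20 and limits RIPK3-dependent death in mouse cells, had 10.9, 9.74 and 10.1 FPKM in the controls and 7.97, 7.24 and 6.51 in maternal DSS libraries (log2 difference -0.45, SE 0.09, unadjusted p = 0.0017 in limma). The death receptor gene Tnfrsf10b had 2.23, 1.88 and 1.70 against 1.67, 1.13 and 1.34 FPKM (-0.31, SE 0.12, unadjusted p = 0.0398 in limma). The maternal DSS libraries lay below all controls in both. Groups did not overlap in 4 of the 27 genes, all lower, against 14.1% of all tested genes in either direction. Zbp1, the nucleic acid sensor that engages RIPK3, had 9.55, 8.23 and 12.9 FPKM in the controls and 6.47, 14.6 and 13.2 in maternal DSS 1, 2 and 3 (log2 difference 0.10, SE 0.29), with maternal DSS 1 lowest and the other 2 of its group highest.

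Among apoptosis genes, 19 initiators and executioners were tested, 6 above and 13 below 0, with a median of -0.033, and 9 restraining genes, 5 above and 4 below. Apaf1, the scaffold of the apoptosome, had 5.16, 5.09 and 4.49 FPKM in the controls and 4.52, 3.67 and 3.54 in maternal DSS libraries (log2 difference -0.27, SE 0.11, unadjusted p = 0.0371 in limma). Mcl1, a survival gene of the Bcl2 family, had 122, 116 and 115 against 96.9, 93.3 and 108 FPKM (-0.24, SE 0.08, unadjusted p = 0.0196 in limma), with no overlap between groups.

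Because the gasdermin C genes respond to type 2 cytokines, genes of that response were read beside them. Of 14 tested, 7 were above and 7 below 0, with a median of -0.032. Retnlb, a goblet cell product induced by interleukin-13, had 53.7, 70.5 and 88.2 FPKM in the controls and 130, 111 and 116 in maternal DSS 1, 2 and 3 (log2 difference 0.77, SE 0.17, unadjusted p = 0.00252 in limma). Maternal DSS 1, highest for Retnlb, was lowest for Gsdmc4, whereas Gsdmc2, Gsdmc3 and the gasdermin C sum were lowest in control 3. The relation of Retnlb to these genes was not tested. Itln1, a lectin gene that is also among the small intestine markers, had 0.368, 0.778 and 1.71 against 0.997, 7.30 and 11.4 FPKM (log2 difference 1.65, SE 0.63, unadjusted p = 0.0335 in limma). The receptor and factor genes Il4ra and Stat6 had log2 differences of 0.01 (SE 0.09) and -0.09 (SE 0.08).

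**Figure D5:**
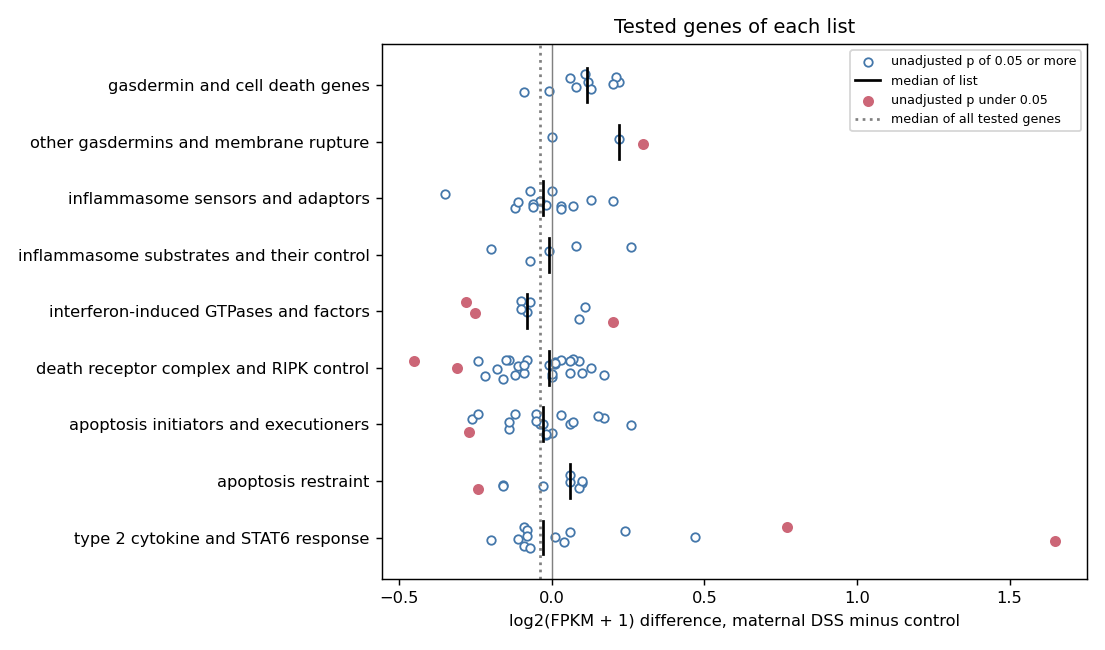
Log2(FPKM + 1) difference, maternal DSS minus control (horizontal axis), of every tested gene (points) in each list (rows), with the list median as a black line and the median of all tested genes as a dotted line. Filled points have an unadjusted p under 0.05 in limma, and none passed adjustment over all genes.

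The profile of the summed gasdermin C level over the 6 libraries was matched most closely by Scfd1, Mettl5, Tm6sf2, Nostrin and Commd5, with root-mean-square differences between centred log2(FPKM + 1) profiles of 0.0253, 0.0326, 0.038, 0.041 and 0.0433. Scfd1 had 23.0, 22.5 and 21.6 FPKM in the controls and 21.0, 28.0 and 28.4 in maternal DSS 1, 2 and 3. In all 5, as in the gasdermin C sum, maternal DSS 2 and 3 lay above the other 4 libraries, which follows from choosing the genes by that profile. Within the set, Casp8 and Ripk3 were the most alike pair by the same measure (0.0829), followed by Gsdmc2 and Gsdmc3 (0.0928), which share sequence. The measure is also small for genes that vary little over the libraries. Gsdmc3 and Ripk1 differed by 0.095 although their log2 differences, 0.08 and -0.09, had opposite signs.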

How the data were processed

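Total RNA of offspring colon was sequenced as stranded mRNA libraries, as the labels' protocols state. The authors deposited FPKM values per gene. The submitters' processing notes name HISAT2 2.1.0 and StringTie 2.1.3b, the read tools Trimmomatic 0.38 and FastQC 0.11.7, DESeq2 without a version, and the build mm10; their roles are not given in the sources used here. Counts were not analysed, so library depth is not known. FPKM sums per library ran from 403673 to 492719, and 13249 to 13739 genes per library reached 1 FPKM.

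Genes with at least 1 FPKM in at least 3 libraries were fitted as log2(FPKM + 1) with limma 3.58.1 (R 4.3.3, mean-variance trend, group alone), which understates changes of low genes. P-values were adjusted by Benjamini-Hochberg with a threshold of 0.05, and the fit was tested on simulated data. Single sums were compared by an exact permutation test. All 10 genes are described. From each pathway list, genes at an unadjusted p under 0.05 are named, or the 2 largest differences where there were none; others named were chosen after their values were seen. The genes and lists were chosen with earlier results of these data known. Alternatives were another pseudocount, other filters, 2 scalings, array weights, a replicate block and leaving out each library.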

Additional observations from a re-analysis of the deposited data

How the results depend on the processing

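Counts of genes past a threshold depended on single libraries and on weighting; the cause was not tested. With array weights, limma called 4933 of 13594 tested genes (36.3%) at an adjusted p under 0.05. At an unadjusted p under 0.05 the same fit had 6784 of the 13594 genes and 7 of the 10. That fit weighted maternal DSS 2 at 5.47 and maternal DSS 1 at 0.249. Leaving out 1 library in turn gave 0 to 10 genes at the adjusted threshold, 394 to 3349 at the unadjusted one (394 without control 2, 487 without control 1, 622 without maternal DSS 2, 623 without maternal DSS 3 and 3349 without maternal DSS 1) and 0 to 5 of the 10. The 1064 genes became 677 at a filter of 5 FPKM, where fewer genes were tested, 1678 with the replicate block and 6784 with array weights. Higher genes were 30.9% of the 1064, 10.5% after scaling to equal sums, which moved the median log2 difference of all genes to -0.14, and 50.0% after median-ratio scaling.

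Signs turned for Gsdmc3 (-0.032) and Casp1 (-0.05) after scaling to equal sums, and for Mlkl after median-ratio scaling (0.033) and with array weights (0.23). Over the left-out libraries Casp1 ran from -0.034 to 0.17, Casp4 from -0.0095 to 0.30 and Mlkl from -0.12 to 0.093. The other 6 genes kept their sign under the alternatives run. The summed gasdermin C difference ran from 53.0 to 141 FPKM over the left-out libraries. Deviations from the group mean correlated at 0.28, -0.38 and 0.40 between same-numbered libraries. With 3 libraries per group these values cannot decide whether the numbers pair anything, and the labels do not say. With the replicate block 0 of the 10 genes passed either threshold. The sum gave p = 0.5 in an exact sign-flip test over same-numbered libraries, whose smallest p is 0.25. Depth is unknown, so the precision of the low genes cannot be stated from counts.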
